A study of Mus musculus with 17 samples.

Results

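The genes of the glutamate receptors and their auxiliary subunits were followed in frontal cortex RNA of mice in which a transgene adds the microRNA miR-211 to forebrain neurons. Membership was set by a list of 34 gene symbols: 4 AMPA, 5 kainate, 6 NMDA, 1 delta and 6 metabotropic receptor genes and 12 auxiliary subunit genes. All 34 were among the 46073 genes in each file and among the 19064 genes tested. The mice were FVB/N males, and each library is polyadenylated RNA from 1 sample. Ct is the genotype labelled CamK, the driver transgene alone, with no doxycycline (n = 6). dTg is the genotype labelled dTg-211, with the driver and the miR-211 transgene and no doxycycline (n = 7, of which replicate 1 is kept apart below). dTgDox is the dTg-211 genotype given doxycycline for 4 days (n = 3). One library is labelled PTRE-miR-211 (non CamK), NTg, and has no values of its own. All 3 compared groups carry the driver, and no driver-only mice received doxycycline, so doxycycline itself and the loss of the transgene's product cannot be told apart. Ages are not given in the labels. A driver of this kind acts in forebrain excitatory neurons, and doxycycline turns a Tet-off transgene off.

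Glutamate is the main excitatory transmitter of the brain. AMPA receptors (Gria1 to Gria4) carry the fast synaptic current, NMDA receptors (Grin genes) pass calcium when glutamate and depolarization coincide, and kainate receptors (Grik genes) modulate release and excitability. Metabotropic receptors (Grm genes) signal through G proteins, those of group I to phospholipase C and those of groups II and III to inhibition of adenylyl cyclase. Auxiliary subunits set where a channel goes and how it gates: the TARPs (Cacng genes), the cornichons Cnih2 and Cnih3 and the Shisa proteins bind AMPA receptors, and Neto1 and Neto2 bind kainate receptors. Across the forebrain these subunits differ by region and cell type.

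Gene positions below are those of GENCODE M21 (GRCm38). Levels are the deposited values, treated as FPKM (fragments divided by transcript length and by the reads of the library), a unit inferred from how the smallest values fall with transcript length. The files of dTg 1 and NTg 1 held identical values for all genes, so the 17 files hold 16 distinct libraries. The header name of NTg 1 also gives dTg_407, that of dTg 1. Which of the 2 genotypes this library has, and so whether it carries the driver, is not settled. It correlated with the others at 0.867 to 0.882 (log2 values across genes), against 0.937 to 0.968 among the other 15. All 12 cerebellar neuron markers were higher in it than in every Ct and dTg library, with a mean log2 level of 7.75 against at most 2.81. It was therefore left out of the fit, and the counts of called genes and members are also given with it. From here on dTg means dTg 2 to 7, and statements on all other libraries are about Ct and dTg 2 to 7. Total FPKM was 595615 to 695518 and 15762 to 16085 genes reached 1 FPKM. The relative depth was 0.789 to 1.10 times that of Ct 1, and the absolute read depth is not given in the sources used here. The dTg libraries 5, 6 and 7 share a number in their header names. Whether they share an animal or a litter is not given, so p-values measure the spread between these libraries, which may in part be technical. The gene of the microRNA itself, Mir211, was listed at 21.6 FPKM in dTg 2, at 24.8 FPKM in dTg 5 and at 0 in the other 14 libraries. Libraries of polyadenylated RNA do not capture the mature microRNA, so these values do not give its level. Whether they come from the transgene was not tested, and they were not used to check the labels.

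The microRNA pairs with its targets mainly through its seed, bases 2 to 8 from the 5′ end, shown in capitals in the mature sequence from RefSeq (GRCm38.p6, chr7:64205831-64205852, plus strand). Members with an 8mer site are shown because it is the longest match searched. An 8mer site is AAAGGGAA on the sense strand of the 3'UTR, the reverse complement of the seed followed by A. In the longest 3'UTR of each gene in GENCODE M21 (GRCm38), 9 of the 34 members (26.5%) held an 8mer, against 7.1% of 14333 tested genes with a 3'UTR. The members' 3'UTRs are long, with a median of 2343 bases against 1183, and of 7261 tested genes with a 3'UTR in the members' middle range 8.6% held one. That set has a median of 1795 bases and does not match the members in length. The 8mer holders Shisa6, Neto1, Grik2, Grin2a and Grin2b, with 3'UTRs of 5747 to 18865 bases, lie above its range. The part of length in the members' share was therefore not settled. With the shorter sites AAAGGGA and AAGGGAA included, 12 of 34 members (35.3%) held a site, the other 3 being Grik3, Grin3a and Grm7, against 24.8% of all and 31.2% of the length-selected genes. A match is a description of these letters and not evidence of binding. Each line gives the gene, the position of the 8mer, and 30 bases of the transcript strand with the 8mer in capitals; Cacng2 holds a pair of them.
mmu-miR-211-5p: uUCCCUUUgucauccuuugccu
Grik2 (chr10:49099031-49099038, minus strand): cagaggaacaaAAAGGGAAaagtttagaat
Grin2a (chr16:9571833-9571840, minus strand): atgtaagagaaAAAGGGAAaaaaagttaag
Grin2b (chr6:135726305-135726312, minus strand): agtacagaagcAAAGGGAAgtaactttgct
Grm2 (chr9:106643580-106643587, minus strand): agtgcttggcaAAAGGGAAccaacaatcag
Cacng2 (chr15:77994751-77994758, minus strand): atgaaaaaataAAAGGGAAccaagataatg
Cacng2 (chr15:77994209-77994216, minus strand): aggccttgaggAAAGGGAAggagaaggaat
Cacng4 (chr11:107733886-107733893, minus strand): ttaaagatttgAAAGGGAAacctgagagtg
Shisa6 (chr11:66213794-66213801, minus strand): tatgatctctaAAAGGGAAgggagagagct
Shisa9 (chr16:12269730-12269737, plus strand): atgttattttaAAAGGGAAgcattttgtat
Neto1 holds the remaining 8mer, whose sequence is not printed.

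The dTg-211 genotype was compared with the driver alone through dTg against Ct. Mature miR-211 was not measured in these libraries, so its excess in dTg was not checked. No member was called: 0 of 34 passed an adjusted p of 0.05 in limma, as did 0 of 19064 genes (0.0%), and 1 member and 607 genes had an unadjusted p under 0.05. With dTg 1 added, 0 members and 0 genes passed too. The member was Grm7, a presynaptic group III metabotropic receptor. Its level was 15.4 to 18.9 FPKM in Ct (median 17.9), 16.6 to 24.6 in dTg (median 20.8) and 21.2, 17.3 and 19.2 in dTgDox 1, 2 and 3. The dTg and Ct ranges overlapped, and the log2 difference was 0.22 (SE 0.10, limma adjusted p 1.0). The median log2 difference of the 34 members was -0.018, against -0.0045 over all genes tested. No member had all dTg libraries on one side of all Ct libraries, which was also rare over all genes (background 0.0787% above and 0.0525% below). For 31 of 34 members the 95% interval of the difference lay within 0.5 log2 units of 0. The exceptions were Grm4, Cacng4 and Cacng5, whose intervals reached -0.61, -0.53 and -1.91. The 9 members with an 8mer had differences of -0.15 to 0.093 with a median of -0.035, and the 25 without had a median of -0.014. Among the 8mer holders, the difference was -0.0078 (95% interval -0.28 to 0.27) for Grin2b, which has the longest 3'UTR of the members at 18865 bases, and 0.093 (95% interval -0.15 to 0.33) for Cacng2. These intervals bound the RNA difference only: protein was not measured.

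**Figure D1:**
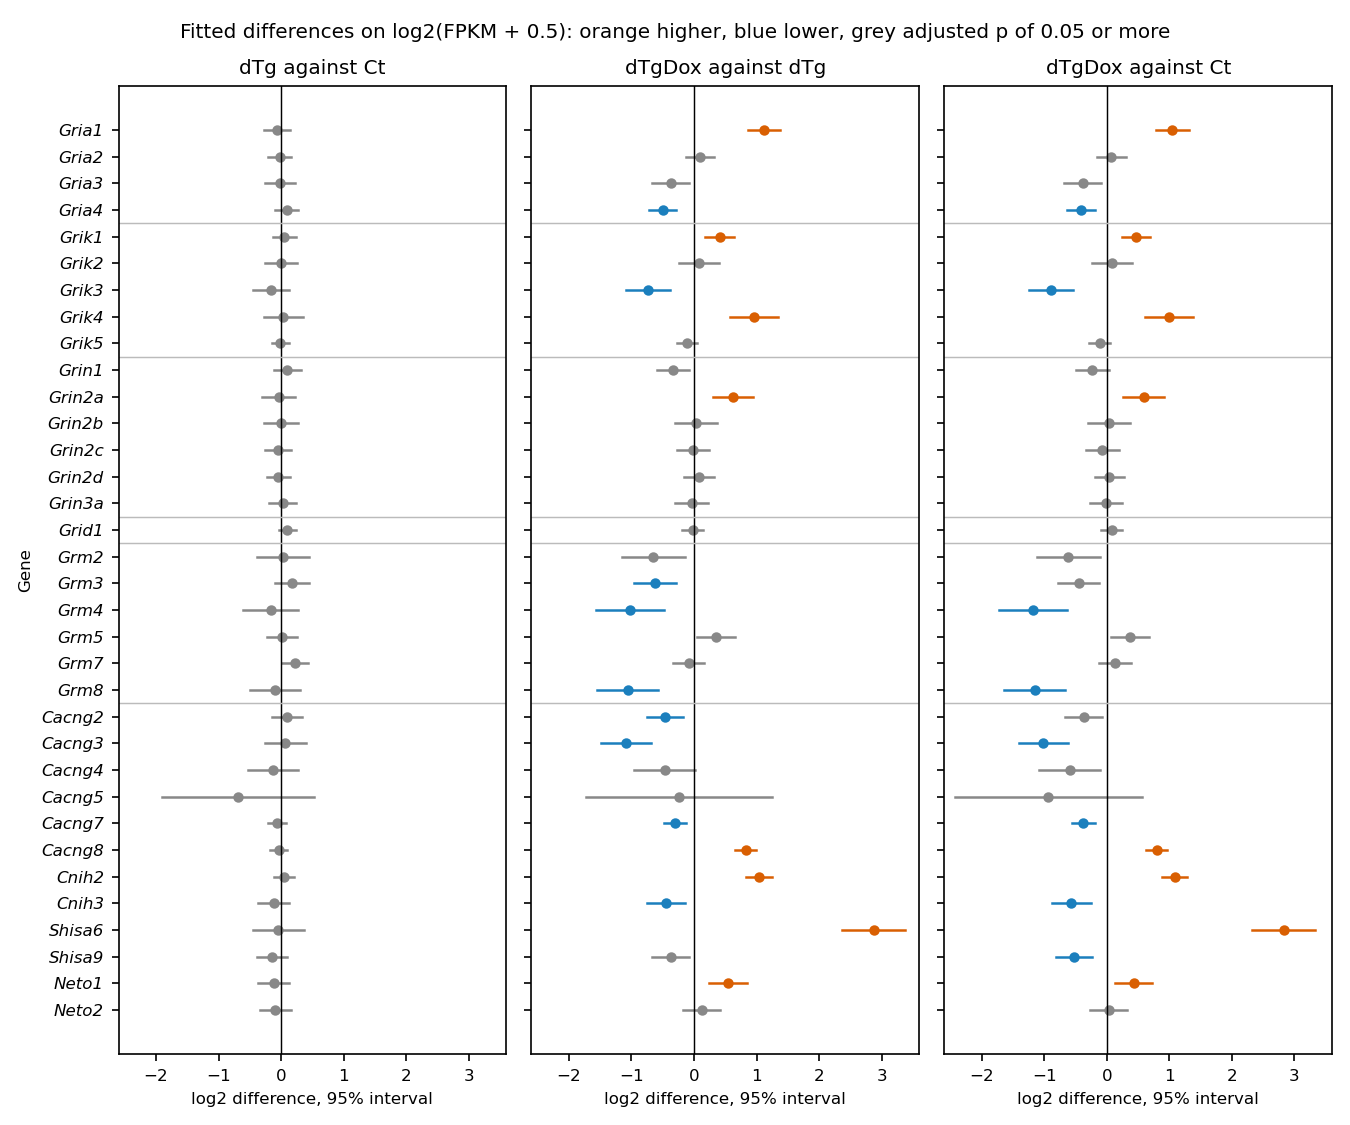
Log2 differences of the 34 members (rows, in class order) in the 3 comparisons, with points for the limma estimate and bars for the 95% interval; orange and blue mark higher and lower genes at an adjusted p under 0.05 and grey marks the rest. No interval is coloured for dTg against Ct, and Shisa6 at 2.87 and 2.83 lies furthest from 0 in both comparisons of dTgDox.

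Both comparisons of the doxycycline-treated mice share the 3 dTgDox libraries, so they are not independent of each other. Against dTg, 17 of 34 members changed (50%, against a background of 18.9% of all genes tested), 8 higher (background 9.65%) and 9 lower (background 9.22%). Against Ct, 16 of 34 changed (47.1%, background 19.7%), 8 higher (9.86%) and 8 lower (9.85%). The 8 higher members were the same in both: Gria1, Grik1, Grik4, Grin2a, Cacng8, Cnih2, Shisa6 and Neto1. By class, 8 of 12 auxiliary, 3 of 5 kainate, 2 of 4 AMPA and 1 of 6 NMDA members were called in each comparison. Metabotropic receptors had 3 of 6 against dTg and 2 of 6 against Ct, and the delta receptor was not called. The median log2 difference of the members was -0.063 and -0.043, against -0.0054 and -0.0079 over all genes. All dTgDox libraries lay above all dTg libraries for 9 members and below for 8 (background 11.3% and 10.9%), and against Ct these counts were 7 and 10 (background 11.5% and 11.8%).

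Markers of the hippocampus, of oligodendrocytes and of astrocytes were higher in dTgDox, and those of cortical excitatory neurons and interneurons were lower, by the mean log2 level of each list. The mean log2 level of 15 measured hippocampal CA neuron markers was 2.95 to 3.32 in Ct, 3.13 to 3.38 in dTg and 4.77 to 4.81 in dTgDox. Their summed level was 322.2 to 473.6, 371.5 to 472.4 and 675.7 to 703.5 FPKM, and 9 of the 15 were higher in every dTgDox library than in any Ct or dTg library. Of 11 dentate granule cell markers 5 were higher and 1 was lower in this way, with mean log2 levels of 2.20 to 2.38, 2.21 to 2.38 and 3.48 to 3.57 and summed levels of 105.5 to 131.2, 99.9 to 143.7 and 155.0 to 180.9 FPKM. Of 12 cortical excitatory neuron markers 6 were lower and 1 was higher in every dTgDox library than in any Ct or dTg library, and the mean log2 level was 4.89 to 5.35 in Ct, 4.97 to 5.25 in dTg and 4.35 to 4.78 in dTgDox (summed 1293.4 to 1909.1, 1297.4 to 2038.6 and 1282.2 to 1376.8 FPKM). Interneuron markers were at a mean log2 level of 5.93 to 6.17, 5.87 to 6.08 and 5.38 to 5.73 (summed 1167.2 to 1509.8, 1191.1 to 1390.9 and 869.0 to 1084.8 FPKM), with 2 of 10 lower in every dTgDox library than in any Ct or dTg library. Oligodendrocyte lineage markers were at a mean log2 level of 5.25 to 5.98 in Ct, 5.22 to 6.06 in dTg and 6.08 to 6.54 in dTgDox (summed 1081.4 to 2320.9, 986.7 to 2621.3 and 2706.4 to 4052.3 FPKM), with 2 of 10 higher in every dTgDox library. Astrocyte markers were at 5.73 to 5.94, 5.78 to 6.16 and 6.20 to 6.34 (summed 1089.8 to 1321.7, 1136.3 to 1502.5 and 1377.4 to 1610.6 FPKM), with 2 of 10 higher and 1 lower. No marker of these 6 lists was at 0 in all libraries of a group. Of all genes tested, 11.3% lay above and 10.9% below every dTg library in all of dTgDox, and 11.5% and 11.8% did so for Ct. The share beyond both groups at once, which cannot be larger, was not computed. The part of these regions and cell types in each difference below was not tested, and in bulk tissue fewer cells of a type and less RNA per cell cannot be told apart.

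With dTg 1 added to the fit, 4 of the 34 members were called against dTg (Gria1, Grik3, Grik4 and Shisa6) and 5 against Ct (these and Grm8). Of all genes, 1537 and 1504 were called in that fit, against 3596 and 3758 in the fit without dTg 1. Without dTgDox 3 the count of members against dTg was 9, beside 2155 of all genes. Over all single-library exclusions 9 to 19 members were called against dTg, beside 2077 to 3715 of all genes. Against Ct these counts were 12 to 18 members and 2229 to 3872 genes.

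Of the AMPA receptor subunits, Gria1 rose by 1.05 to 1.12 log2 units, Gria4 fell, and Gria2 and Gria3 did not pass the test. Gria1 (chromosome 11, 57011387-57330244) encodes GluA1, the subunit known for activity-dependent insertion at synapses. Its level was 63.04 to 90.8 FPKM in Ct (median 72.6), 55.7 to 80.4 in dTg (median 72.4) and 149, 149.7 and 156 in dTgDox 1, 2 and 3. Every dTgDox library lay above every Ct and dTg library. The log2 difference was 1.12 (SE 0.12, limma adjusted p 1.9e-05) against dTg and 1.05 (SE 0.12, limma adjusted p 3.2e-05) against Ct. Gria4, a subunit of fast receptors common in interneurons, was at 22.5 to 27.7 FPKM in Ct (median 25.7), 21.5 to 30.7 in dTg (median 27.7) and 19.1, 18.7 and 18.5 in dTgDox 1, 2 and 3. Here every dTgDox library lay below all others. Its log2 difference was -0.50 (SE 0.10, limma adjusted p 0.0036) against dTg and -0.41 (SE 0.10, limma adjusted p 0.012) against Ct. Gria2, whose edited form makes the receptor impermeable to calcium, was the most abundant AMPA subunit in Ct and dTg, at 139.8 to 164 FPKM in Ct (median 153), 119.7 to 187 in dTg (median 149) and 159, 159 and 164 in dTgDox 1, 2 and 3. Its groups overlapped, with a log2 difference of 0.094 (95% interval -0.13 to 0.32) against dTg and 0.072 (95% interval -0.16 to 0.30) against Ct. Gria3 was at 59.2 to 77.9 FPKM in Ct (median 64.2), 49.6 to 87.9 in dTg (median 60.6) and 47.8, 49.5 and 51.7 in dTgDox 1, 2 and 3. The dTgDox libraries lay below all Ct libraries but overlapped dTg 4, and the difference was -0.38 (SE 0.14, limma adjusted p 0.074) against dTg and -0.39 (SE 0.14, limma adjusted p 0.062) against Ct.

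The makeup of the AMPA set differed too. Gria1 made up 19.9 to 27.5% of the summed AMPA subunit FPKM in Ct, 19.0 to 25.2% in dTg and 39.7 to 40.0% in dTgDox. Gria3 made up 17.9 to 25.3%, 18.8 to 23.3% and 12.7 to 13.2%, and Gria4 7.1 to 8.7%, 7.4 to 10.2% and 4.7 to 5.1%. The sum itself was 302.8 to 330.4, 250.5 to 377.0 and 375.3 to 390.1 FPKM. The log2 ratio of Gria1 to Gria2 was -1.06 ± 0.21 (SD, n = 6) in Ct, -1.11 ± 0.16 (n = 6) in dTg and -0.084 ± 0.015 (n = 3) in dTgDox. It differed by 1.02 against dTg and by 0.98 against Ct, each with an exact two-sided permutation p of 0.024, the smallest that 3 against 6 libraries allow (adjusted over 9 ratio tests 0.036). For dTg against Ct the ratio differed by -0.046 (exact permutation p 0.68, adjusted 0.77). In this and the 2 other ratios below, the adjusted exact permutation p of both dTgDox comparisons was 0.054 to 0.11 once any library was left out. That is the smallest that the remaining libraries allow over 9 tests. The permutations treat dTg 5, 6 and 7 as separate, and the ratios were not tested with them averaged into 1.

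**Figure D2:**
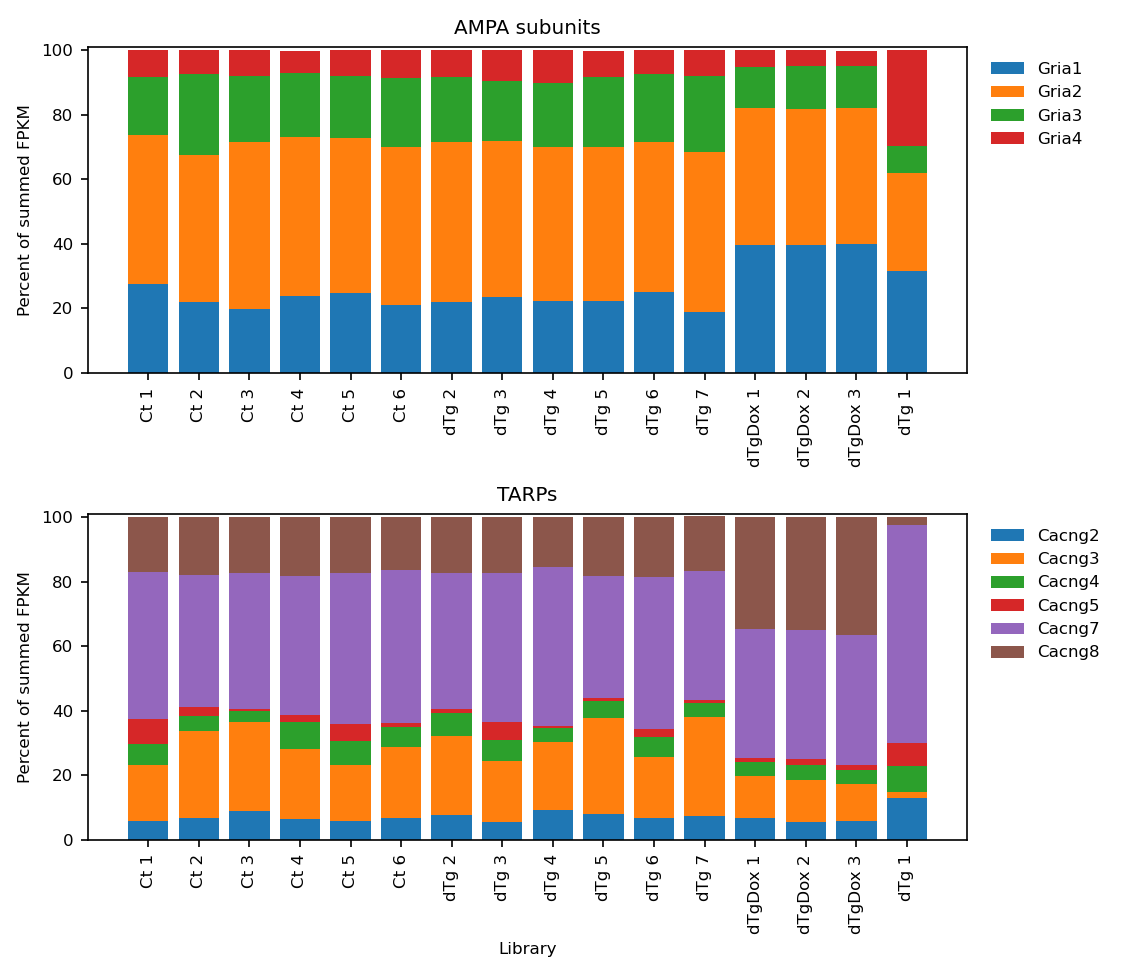
Share of each gene in the summed FPKM of the AMPA subunits (top) and of the TARPs (bottom), one bar per library. In dTgDox the Gria1 share is 39.7 to 40.0% and the Cacng8 share 34.7 to 36.6%, above every Ct and dTg 2 to 7 library; dTg 1, at the right, has a makeup of its own, with 29.9% Gria4 and 2.7% Cacng8.

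The TARPs, which traffic and anchor AMPA receptors, split in direction. Cacng8 (γ-8, chromosome 7, 3390683-3415648), the TARP known for its abundance in hippocampus, was at 33.3 to 41.6 FPKM in Ct (median 37.02), 31.7 to 40.8 in dTg (median 36.7) and 62.6, 68.2 and 64.7 in dTgDox 1, 2 and 3. All dTgDox libraries were higher than all others, with a log2 difference of 0.83 (SE 0.079, limma adjusted p 6.3e-06) against dTg and 0.79 (SE 0.079, limma adjusted p 9e-06) against Ct. Cacng7 (γ-7) lies next to it on the same strand (chromosome 7, 3332955-3368221), with 22461 bases between the genes, and moved the other way. It was the most abundant TARP in Ct and dTg, at 85.6 to 105 FPKM in Ct (median 96.5), 80.9 to 102 in dTg (median 90.6) and 72.1, 77.5 and 70.8 in dTgDox 1, 2 and 3. Each dTgDox library lay below all others, and the difference was -0.31 (SE 0.083, limma adjusted p 0.018) against dTg and -0.38 (SE 0.083, limma adjusted p 0.0054) against Ct. Against dTg this call was lost without dTgDox 1 or dTgDox 3 (limma adjusted p 0.073 and 0.081).

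Cacng3 (γ-3), a TARP of the cerebral cortex, was at 37.7 to 62.9 FPKM in Ct (median 44.3), 38.7 to 66.1 in dTg (median 46.4) and 23.4, 25.3 and 20.5 in dTgDox 1, 2 and 3. Its dTgDox libraries were all below those of Ct and dTg, at a log2 difference of -1.08 (SE 0.19, limma adjusted p 0.00097) against dTg and -1.02 (SE 0.19, limma adjusted p 0.0015) against Ct. Cacng2 (stargazin, γ-2), the founding TARP, was at 12.7 to 18.4 FPKM in Ct (median 13.7), 12.2 to 18.8 in dTg (median 15.3) and 12.4, 10.8 and 10.1 in dTgDox 1, 2 and 3. The groups overlapped between dTgDox 1 and dTg 3, and the difference was -0.46 (SE 0.14, limma adjusted p 0.029) against dTg and -0.37 (SE 0.14, limma adjusted p 0.07) against Ct. Its call against dTg was lost without dTg 5, dTgDox 2 or dTgDox 3 (limma adjusted p 0.055, 0.085 and 0.13), and with dTg 5, 6 and 7 averaged into 1 (0.055). Cacng4 (γ-4) and Cacng5 (γ-5), neighbours on chromosome 11 with 80047 bases between them, were not called. Cacng4 was at 7.22 to 16.8 FPKM in Ct (median 13.8), 8.66 to 14.4 in dTg (median 12.2) and 8.01, 8.93 and 7.66 in dTgDox 1, 2 and 3, with a difference of -0.47 (SE 0.23, limma adjusted p 0.17) against dTg and -0.60 (SE 0.23, limma adjusted p 0.079) against Ct. Cacng5 was at 1.40 to 18.4 FPKM in Ct (median 5.40), 1.65 to 12.4 in dTg (median 2.51) and 2.03, 3.26 and 2.98 in dTgDox 1, 2 and 3, with the widest interval of any member, a difference of -0.94 (95% interval -2.42 to 0.55) against Ct. Cacng8 made up 16.3 to 18.4% of the summed TARP FPKM in Ct, 15.6 to 18.7% in dTg and 34.7 to 36.6% in dTgDox, and Cacng3 17.3 to 27.7%, 19.0 to 30.6% and 11.6 to 13.0%. The log2 ratio of Cacng8 to Cacng2 was 1.34 ± 0.22 (SD, n = 6), 1.22 ± 0.30 (n = 6) and 2.51 ± 0.19 (n = 3). It differed by 1.29 against dTg and 1.17 against Ct (exact permutation p 0.024 each, adjusted 0.036), and by -0.13 between dTg and Ct (p 0.41, adjusted 0.52).

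Of the AMPA-associated cornichon and Shisa proteins, Cnih2 and Shisa6 rose and their relatives Cnih3 and Shisa9 were lower. Cnih2 (chromosome 19, 5092868-5098521), which slows AMPA receptor kinetics and aids surface delivery, was the most abundant auxiliary gene, at 139 to 175 FPKM in Ct (median 163), 134 to 187 in dTg (median 166) and 338, 347 and 324 in dTgDox 1, 2 and 3. All dTgDox libraries were higher than all others, with a log2 difference of 1.04 (SE 0.10, limma adjusted p 4.6e-06) against dTg and 1.08 (SE 0.10, limma adjusted p 2.7e-06) against Ct. Cnih3 was at 30.1 to 49.6 FPKM in Ct (median 40.9), 29.3 to 42.8 in dTg (median 38.6) and 27.1, 29.9 and 24.5 in dTgDox 1, 2 and 3. It lay below all Ct libraries but overlapped dTg 4, and the difference was -0.45 (SE 0.15, limma adjusted p 0.043) against dTg and -0.57 (SE 0.15, limma adjusted p 0.013) against Ct. The call against dTg was lost in 9 of 15 fits that left out 1 library (limma adjusted p up to 0.18), and with dTg 5, 6 and 7 averaged into 1 (0.13). Against Ct it was lost without dTgDox 3 (0.073).

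Shisa6 (chromosome 11, 66211725-66525964), an AMPA receptor partner that limits desensitization, had the largest difference of the 34 members in both comparisons. Its level was 2.54 to 4.42 FPKM in Ct (median 3.57), 2.06 to 4.98 in dTg (median 3.75) and 29.9, 21.8 and 30.97 in dTgDox 1, 2 and 3. The 3 dTgDox libraries were all several times higher than any Ct or dTg 2 to 7 library. In dTg 1, kept apart and untreated, Shisa6 was at 33.8 FPKM, above all 3 dTgDox libraries. The log2 difference of Shisa6 was 2.87 (SE 0.24, limma adjusted p 1.5e-06) against dTg and 2.83 (SE 0.24, limma adjusted p 1.7e-06) against Ct. Its limma adjusted p stayed at or below 3.8e-05 in every fit that left out 1 library. Shisa9 (CKAMP44), described in dentate granule cells, was at 19.9 to 25.9 FPKM in Ct (median 23.5), 14.4 to 24.8 in dTg (median 21.7) and 16.9, 15.04 and 15.4 in dTgDox 1, 2 and 3. The dTgDox libraries were below all Ct libraries and overlapped dTg 4, with a difference of -0.38 (SE 0.14, limma adjusted p 0.068) against dTg and -0.52 (SE 0.14, limma adjusted p 0.014) against Ct. The call against Ct was lost without dTgDox 2 or dTgDox 3 (limma adjusted p 0.057 and 0.059). Shisa6 and Shisa9 each hold an 8mer, printed above. Among all 9 holders of an 8mer, 3 were higher and 1 lower in each comparison of dTgDox, with medians of 0.039 against dTg and 0.031 against Ct. Among the 25 without, 5 were higher and 8 lower against dTg and 5 higher and 7 lower against Ct, with medians of -0.088 and -0.073. The background is 9.65% higher and 9.22% lower against dTg, and 9.86% and 9.85% against Ct.

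**Figure D3:**
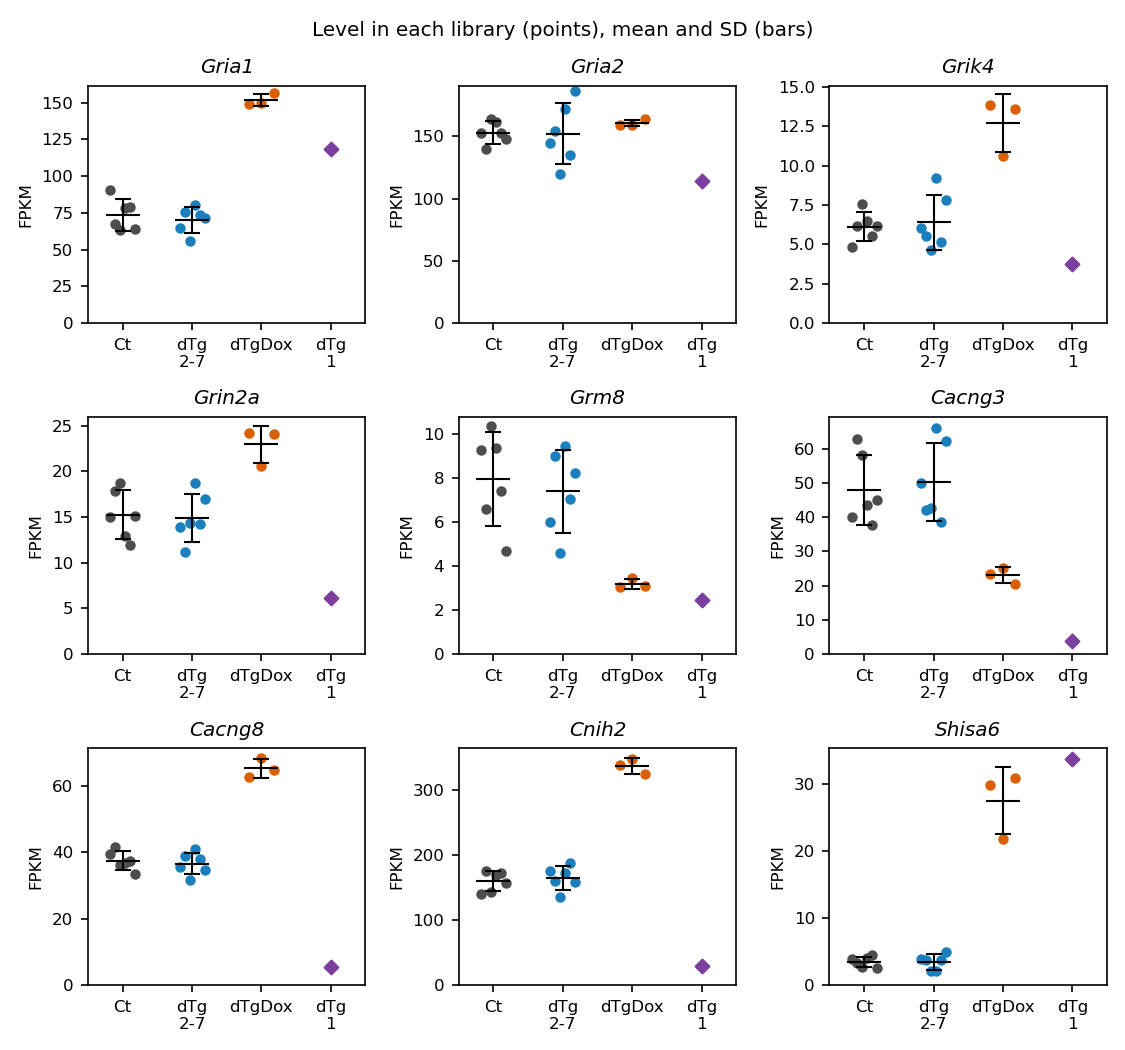
FPKM of 9 members in each library (points), with the mean and SD of each group as bars and dTg 1 as a diamond; each axis starts at 0. The dTgDox points lie apart from Ct and dTg for 8 of the 9 genes, above for Gria1, Grik4, Grin2a, Cacng8, Cnih2 and Shisa6 and below for Grm8 and Cacng3, while Gria2 overlaps.

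Kainate receptor subunits moved in both directions. Grik4 (GluK4, chromosome 9, 42518135-42944493), a high-affinity subunit known from CA3 neurons, was at 4.84 to 7.54 FPKM in Ct (median 6.16), 4.65 to 9.23 in dTg (median 5.78) and 13.9, 10.6 and 13.6 in dTgDox 1, 2 and 3. Every dTgDox library lay above all others, and the log2 difference was 0.96 (SE 0.18, limma adjusted p 0.0018) against dTg and 0.997 (SE 0.18, limma adjusted p 0.0014) against Ct. Grik1 (GluK1) was low throughout, at 2.68 to 3.65 FPKM in Ct (median 3.14), 2.74 to 3.79 in dTg (median 3.36) and 4.10, 4.73 and 4.79 in dTgDox 1, 2 and 3. Its dTgDox libraries were also above all of Ct and dTg, by 0.41 (SE 0.11, limma adjusted p 0.015) against dTg and 0.47 (SE 0.11, limma adjusted p 0.0074) against Ct. Against dTg that call was lost without dTgDox 2 or dTgDox 3 (limma adjusted p 0.062 and 0.075). Grik3 (GluK3) was at 10.3 to 18.1 FPKM in Ct (median 14.3), 9.48 to 15.2 in dTg (median 13.6) and 8.14, 8.03 and 6.27 in dTgDox 1, 2 and 3. It was lower in every dTgDox library than in any other, with a difference of -0.74 (SE 0.17, limma adjusted p 0.0064) against dTg and -0.90 (SE 0.17, limma adjusted p 0.0016) against Ct.

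Grik5 (GluK5), the other high-affinity subunit and the most abundant of the class, was at 58.1 to 70.1 FPKM in Ct (median 61.3), 56.2 to 72.7 in dTg (median 60.5) and 58.4, 59.1 and 54.8 in dTgDox 1, 2 and 3. Its groups overlapped and the difference was -0.12 (95% interval -0.28 to 0.045) against Ct. Grik2 (GluK2), the main subunit that forms channels, was at 11.6 to 17.7 FPKM in Ct (median 15.6), 11.5 to 16.9 in dTg (median 15.2) and 17.1, 13.5 and 16.2 in dTgDox 1, 2 and 3, with a difference of 0.079 (95% interval -0.24 to 0.40). The 8mer in its 3'UTR is printed above. Grik4 made up 4.9 to 7.1% of summed kainate subunit FPKM in Ct, 5.2 to 8.9% in dTg and 11 to 14.2% in dTgDox, at a similar sum (95.4 to 105.7, 90 to 110.6 and 95.7 to 101.6 FPKM). Of the kainate receptor partners, Neto1 was at 18.7 to 23.2 FPKM in Ct (median 19.8), 13.1 to 21.5 in dTg (median 19.2) and 30.2, 21.8 and 30.8 in dTgDox 1, 2 and 3. The dTgDox 2 value lay just above the highest dTg library and within the Ct range. The difference was 0.54 (SE 0.14, limma adjusted p 0.014) against dTg and 0.43 (SE 0.14, limma adjusted p 0.045) against Ct. Both calls rest on few libraries: against dTg it was lost without dTgDox 1 or dTgDox 3 (limma adjusted p 0.081 and 0.084), and against Ct in 10 of 15 such fits (up to 0.19). Neto2 was at 10.5 to 16.6 FPKM in Ct (median 15.4), 11.1 to 15.5 in dTg (median 14.2) and 17.2, 13.9 and 13.5 in dTgDox 1, 2 and 3, with a difference of 0.028 (95% interval -0.27 to 0.33) against Ct.

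Among the NMDA receptor subunits 1 of 6 changed in each comparison of dTgDox (16.7%, near the background of 18.9% against dTg and 19.7% against Ct). Grin2a (GluN2A, chromosome 16, 9567898-9995560), the subunit that gives faster receptors and gains on Grin2b during development, was at 12.00 to 18.7 FPKM in Ct (median 15.1), 11.2 to 18.8 in dTg (median 14.3) and 24.2, 20.6 and 24.1 in dTgDox 1, 2 and 3. All dTgDox libraries were above all others. The log2 difference was 0.62 (SE 0.15, limma adjusted p 0.011) against dTg and 0.59 (SE 0.15, limma adjusted p 0.014) against Ct. The calls were lost without dTgDox 1 or dTgDox 3, both against dTg (limma adjusted p 0.055 and 0.052) and against Ct (0.067 and 0.064). In the 7 libraries with low olfactory bulb and striatal markers the difference against Ct was 0.29 (limma adjusted p 0.33). Grin2b (GluN2B), with slower kinetics, was at 18.5 to 24.5 FPKM in Ct (median 21.9), 17.2 to 31.3 in dTg (median 20.4) and 24.1, 18.5 and 24.6 in dTgDox 1, 2 and 3. It overlapped in all groups, with a difference of 0.031 (95% interval -0.30 to 0.37) against Ct. The log2 ratio of Grin2a to Grin2b was -0.51 ± 0.16 (SD, n = 6) in Ct, -0.54 ± 0.13 (n = 6) in dTg and 0.041 ± 0.097 (n = 3) in dTgDox. It differed by 0.58 against dTg and 0.55 against Ct (exact permutation p 0.024 each, adjusted 0.036), and by -0.027 between dTg and Ct (p 0.79, adjusted 0.79).

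Grin1 (GluN1), the obligatory subunit, had the highest level of the class, at 175 to 265 FPKM in Ct (median 212), 209 to 247 in dTg (median 236) and 176, 214 and 162 in dTgDox 1, 2 and 3. Its groups overlapped, and the difference was -0.33 (SE 0.12, limma adjusted p 0.07) against dTg and -0.23 (SE 0.12, limma adjusted p 0.2) against Ct. Against dTg, Grin1 did pass with quantile normalization, library weights or only the 2 groups compared (limma adjusted p 0.022, 0.026 and 0.034). It also passed there without Ct 2 or dTgDox 2 (0.048 and 0.037). Grin2c, which is prominent in cerebellum and astrocytes, was at 8.98 to 14.4 FPKM in Ct (median 11.98), 10.5 to 11.9 in dTg (median 11.2) and 10.4, 13.2 and 9.84 in dTgDox 1, 2 and 3, with a difference of -0.073 (95% interval -0.33 to 0.19) against Ct. Grin2d, a subunit of interneurons, spanned 3.68 to 6.04 FPKM over Ct, dTg and dTgDox, and Grin3a spanned 5.62 to 8.38 FPKM. Neither was called in any comparison, and their differences against Ct were 0.039 (95% interval -0.19 to 0.27) and -0.012 (95% interval -0.27 to 0.25). The delta receptor Grid1, which binds synaptic organizers of the cerebellin family, was at 10.6 to 13.1 FPKM in Ct (median 11.8), 11.5 to 13.8 in dTg (median 12.8) and 13.3, 13.03 and 11.2 in dTgDox 1, 2 and 3. Its 3 groups overlapped, and the difference was 0.077 (95% interval -0.088 to 0.24) against Ct.

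All called metabotropic receptors were lower, 3 of 6 against dTg (background 9.22%) and 2 of 6 against Ct (9.85%). Grm8 (chromosome 6, 27275119-28135178), a group III receptor of presynaptic terminals, was at 4.71 to 10.4 FPKM in Ct (median 8.34), 4.60 to 9.48 in dTg (median 7.63) and 3.05, 3.44 and 3.08 in dTgDox 1, 2 and 3. All dTgDox libraries lay below all Ct and dTg libraries, with a log2 difference of -1.06 (SE 0.23, limma adjusted p 0.0047) against dTg and -1.16 (SE 0.23, limma adjusted p 0.0026) against Ct. Grm4, also of group III, was at 4.42 to 12.9 FPKM in Ct (median 6.93), 5.54 to 10.03 in dTg (median 5.90) and 3.01, 3.89 and 2.20 in dTgDox 1, 2 and 3. It too was lower in every dTgDox library, at a difference of -1.02 (SE 0.25, limma adjusted p 0.012) against dTg and -1.19 (SE 0.25, limma adjusted p 0.0046) against Ct. Against dTg this call was lost without dTgDox 3 (limma adjusted p 0.076). In the 7 libraries with low olfactory bulb and striatal markers, described below, the difference against the single Ct library was -0.50. Against dTg 4, 5 and 7 in that fit the call of Grm4 was kept. Grm3, a group II receptor with high levels in astrocytes, was at 13.9 to 22.4 FPKM in Ct (median 19.3), 18.2 to 27.1 in dTg (median 20.03) and 13.6, 15.4 and 11.6 in dTgDox 1, 2 and 3. Its dTgDox libraries lay below all dTg libraries and overlapped Ct 1. The difference was -0.62 (SE 0.16, limma adjusted p 0.012) against dTg and -0.45 (SE 0.16, limma adjusted p 0.052) against Ct, and the call against dTg was lost without dTgDox 3 (0.076).

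Grm2, the other group II receptor and a presynaptic autoreceptor, was at 12.9 to 28.2 FPKM in Ct (median 23.6), 14.99 to 28.05 in dTg (median 20.1) and 13.7, 13.3 and 12.4 in dTgDox 1, 2 and 3. The dTgDox libraries were below all dTg libraries and overlapped the low Ct library 6, with a difference of -0.65 (SE 0.24, limma adjusted p 0.071) against dTg and -0.62 (SE 0.24, limma adjusted p 0.083) against Ct. Grm5, the group I receptor that couples to calcium release, was the most abundant of the class at 31.8 to 48.8 FPKM in Ct (median 35.97), 27.7 to 43.1 in dTg (median 40.6) and 51.2, 45.2 and 50.5 in dTgDox 1, 2 and 3. It was above all dTg libraries and overlapped Ct 4, with a difference of 0.35 (SE 0.14, limma adjusted p 0.1) against dTg and 0.36 (SE 0.14, limma adjusted p 0.087) against Ct. Grm7 overlapped in all groups (values above), with a difference of 0.13 (95% interval -0.12 to 0.38) against Ct. Grm5 made up 29.4 to 40.4% of the summed metabotropic FPKM in Ct, 27.3 to 39.7% in dTg and 45.9 to 51.1% in dTgDox. Grm8 made up 4.4 to 8.9%, 4.5 to 8.1% and 2.9 to 3.5%.

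The surrounding machinery was read from 3 lists of related genes, and none of their genes was called for dTg against Ct. Of 21 postsynaptic scaffold genes, 1 was higher and 6 lower against dTg (7 called, 33.3%, background 18.9%), and 1 was higher and 5 lower against Ct (28.6%, background 19.7%), with medians of -0.23 and -0.22. Homer3, which links group I metabotropic receptors to calcium stores, was the higher one, at 5.25 ± 1.53 FPKM (SD, n = 6) in Ct, 4.88 ± 1.07 (n = 6) in dTg and 29.2 ± 2.89 (n = 3) in dTgDox. Its 3 dTgDox libraries, at 27.5 to 32.5, lay above the others, at 3.38 to 7.44, and the log2 difference was 2.41 (SE 0.21, limma adjusted p 2.2e-06) against Ct. The lower ones included Dlgap2 at -0.69 (SE 0.10, limma adjusted p 0.00031), Dlg1 (SAP97), a partner of GluA1, at -0.42 (SE 0.081, limma adjusted p 0.0024) and the AMPA receptor scaffold Grip2 at -1.34 (SE 0.29, limma adjusted p 0.0045).

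Of 22 genes of receptor assembly and trafficking, 4 were higher and 4 lower against dTg (36.4%, background 18.9%), and 5 higher and 4 lower against Ct (40.9%, background 19.7%). C1ql2, a secreted organizer of kainate receptors that is also on the dentate granule cell list, was at 0.343 ± 0.338 FPKM (SD, n = 6) in Ct, 0.508 ± 0.447 (n = 6) in dTg and 30.7 ± 11.97 (n = 3) in dTgDox. Its dTgDox libraries, at 17.4 to 40.6, were far above the highest other value of 1.36, and the difference was 5.20 (SE 0.35, limma adjusted p 3.2e-07) against Ct. Lrrtm1, a postsynaptic adhesion protein, was higher at 18.7 ± 1.87 FPKM (SD, n = 6) in Ct, 19.5 ± 1.35 (n = 6) in dTg and 34.6 ± 1.18 (n = 3) in dTgDox, a difference of 0.88 (SE 0.079, limma adjusted p 3.3e-06). Gsg1l, an inhibitory AMPA receptor partner, was lower at 25.1 ± 6.34 FPKM (SD, n = 6) in Ct, 24.5 ± 3.23 (n = 6) in dTg and 10.4 ± 2.37 (n = 3) in dTgDox, a difference of -1.22 (SE 0.19, limma adjusted p 0.00043). Olfm2 was lower by the same test, at -1.15 (SE 0.18, limma adjusted p 0.00043). Genes of glutamate transport and recycling gave 1 of 12 against dTg and 2 of 12 against Ct (8.3% and 16.7%, below the background of 18.9% and 19.7%). The neuronal glutamate transporter Slc1a1 was higher at 0.33 (SE 0.069, limma adjusted p 0.0037), and the glutamine transporter Slc38a1 lower at -0.42 (SE 0.10, limma adjusted p 0.011) against Ct and at -0.30 (SE 0.10, limma adjusted p 0.055), not called, against dTg.

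Within Ct and dTg, 3 members, chosen after their values were seen, varied with markers of neighbouring regions. Olfactory bulb markers (13 genes, mean log2) were highest in Ct 1 at 4.90, dTg 3 at 4.18 and Ct 5 at 4.11, against 1.46 to 3.40 in the other 9 libraries. Cacng5 was at 18.4, 12.4 and 11.6 FPKM in those 3 libraries and at 1.40 to 6.13 FPKM in the other 9. Grm4 was also highest there, at 12.9, 10.0 and 8.70 FPKM against 4.42 to 7.001 FPKM. Striatal neuron markers (11 genes) were highest in Ct 6 at 5.84, Ct 4 at 5.72, dTg 6 at 4.98 and dTg 2 at 4.93, against 2.66 to 4.28 in the other 8. Grm2 was lowest in those 4 libraries, at 12.9, 14.4, 14.99 and 18.1 FPKM against 19.8 to 28.2 FPKM in the other 8. The dTgDox libraries had low levels of both lists, at 1.55 to 1.69 and 2.66 to 2.70. A fit without the libraries with raised olfactory bulb (over 2.5) or striatal (over 4) markers kept 7: Ct 3, dTg 4, 5 and 7 and all dTgDox. In it all called members kept their direction. Of the 17 called against dTg 12 were still called, while the count of all genes called against dTg stayed within 1.5 times of 3596. With a single Ct library, that fit cannot tell which calls against Ct hold, so only differences are given here. Among the 10 lost against Ct, the log2 differences of Grm4 (-0.50), Grin2a (0.29) and Shisa9 (-0.32) were smaller than those above by over 1.5 times. Those of Gria4 (-0.46), Grik1 (0.53), Cnih3 (-0.77) and Neto1 (0.51) were larger, and Grik3 (-0.80), Grik4 (0.70) and Cacng7 (-0.26) were smaller by less. Against dTg the 5 lost were Grik1 at 0.30, Grik4 at 0.81, Cacng7 at -0.26, Cnih3 at -0.40 and Neto1 at 0.63, all within 1.5 times of the values above.

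**Figure D4:**
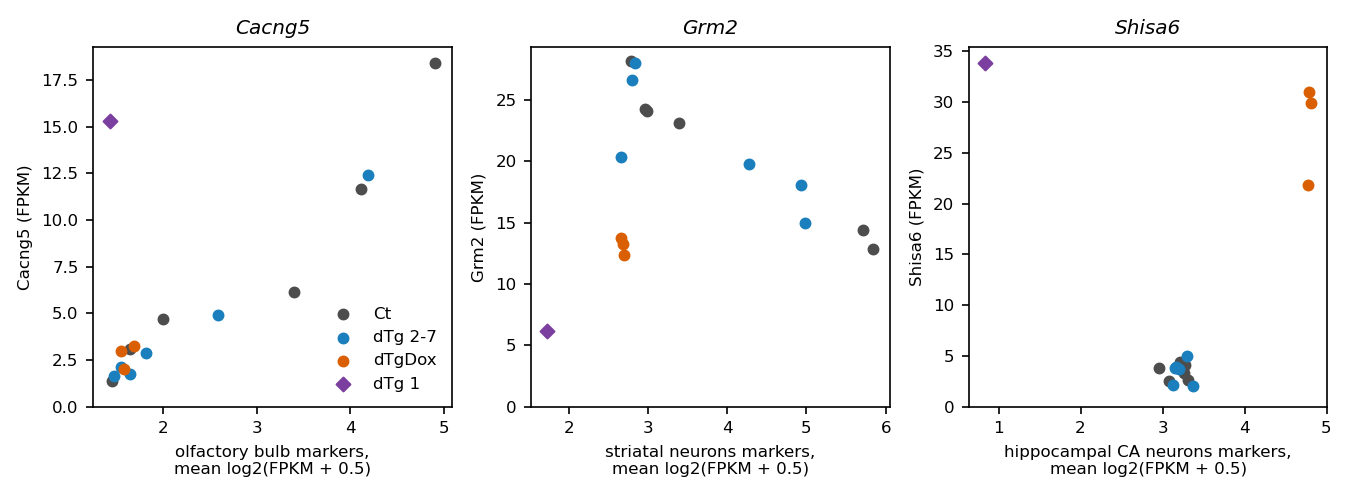
FPKM of Cacng5, Grm2 and Shisa6 in each library against the mean log2(FPKM + 0.5) of a regional marker list; grey is Ct, blue dTg 2 to 7, orange dTgDox and the purple diamond dTg 1. Cacng5 exceeds 10 FPKM in the 3 libraries of Ct and dTg with olfactory bulb levels above 4, and Grm2 is below 19 FPKM in the 4 with striatal levels above 4.5. Shisa6 separates dTgDox from Ct and dTg 2 to 7 together with the hippocampal CA list, while dTg 1 has Shisa6 at 33.8 FPKM and a CA level of 0.838.

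The library shared by dTg 1 and NTg 1 had a receptor makeup unlike the other 15, given here as single values with no replicate. Grin2c was at 99.1 FPKM there, against 8.98 to 14.4 in the other 15, and made up 85.7% of the NMDA subunits other than Grin1. Grm4 was at 104.8 FPKM and made up 80.8% of the metabotropic receptors. Gria4 was at 112 FPKM and made up 29.9% of the AMPA subunits. Conversely Grin2b was at 1.03 FPKM, Neto1 at 0.655, Grm5 at 1.56, Cnih3 at 1.98, Cacng3 at 3.92 and Cacng8 at 5.57 FPKM, each below every other library. Its hippocampal CA marker level was 0.838 and its cortical excitatory level 1.81, against at least 2.95 and 4.35 in the other 15, so the labelled frontal cortex was not borne out for this library by its markers.

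**Figure D5:**
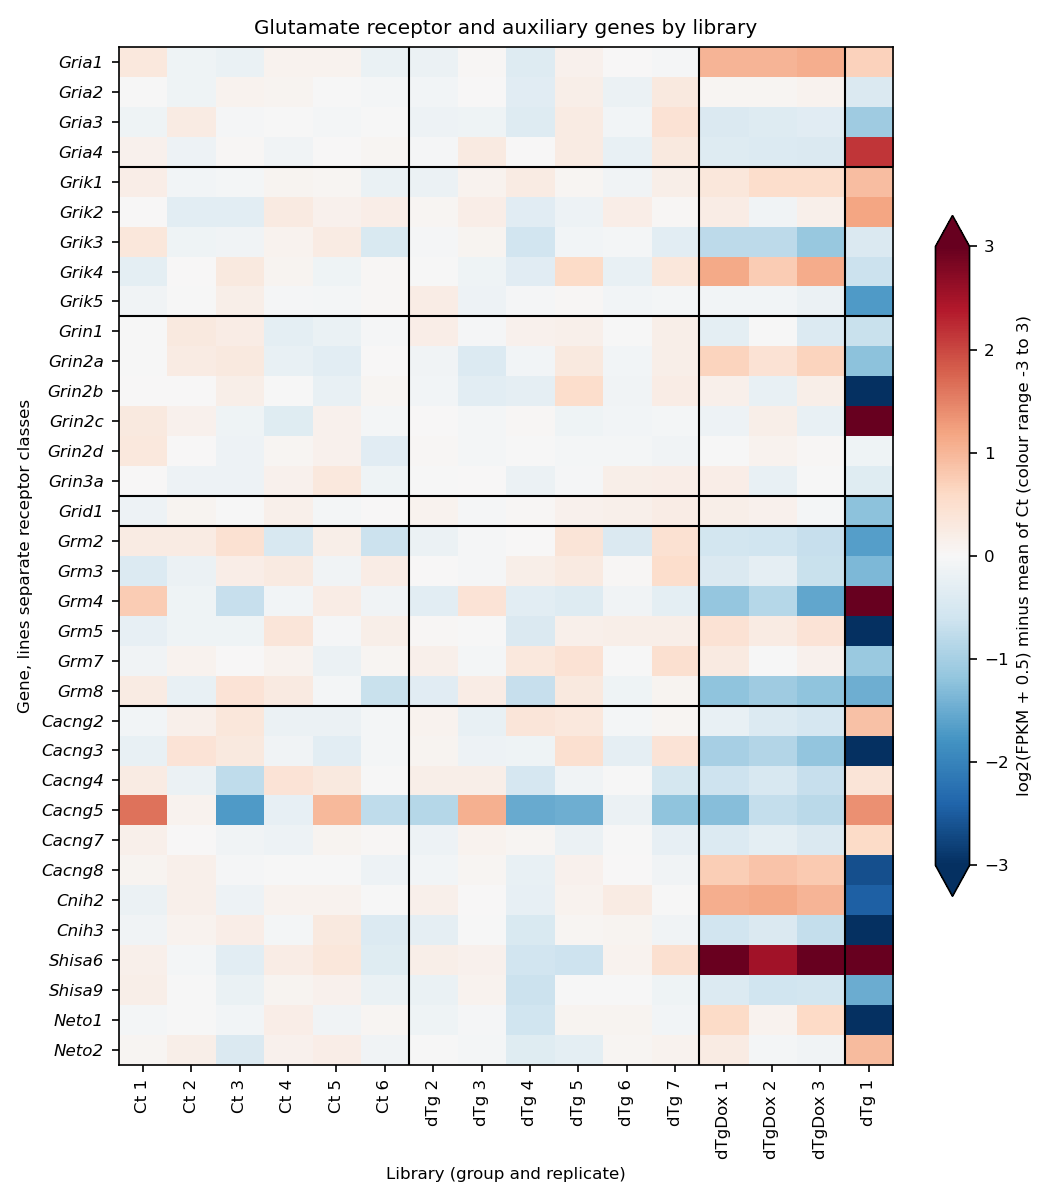
Log2(FPKM + 0.5) of each member minus the mean of the 6 Ct libraries (colour, clipped at 3 in either direction), for 34 genes in class order and 16 libraries. The Ct and dTg columns are mostly pale apart from Cacng5, the 3 dTgDox columns carry the same pattern with Shisa6 the darkest, and dTg 1 differs across most classes.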

How the data were processed

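PolyA RNA libraries of frontal cortex were analysed, with groups taken from the labels' titles, genotypes and doxycycline days. TopHat2 and DESeq are named, without version or role, in the submitters' processing notes; which program gave the values, on which build and annotation, is not given in the sources used here. The deposited values, 1 per Ensembl gene, were treated as FPKM: the unit is not named in the file, but the smallest values fall with transcript length (smallest FPKM times length has a median of 36.6 for transcripts of 1200 to 2400 bases and 37.1 for 2400 to 4800). Whole reads could not be recovered, so no counting intervals are given. Symbols came from GENCODE M21 for 45139 of 46073 identifiers.

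Values were tested as log2(FPKM + 0.5) with limma 3.58.1 (R 4.3.3), 1 mean per group, empirical Bayes moderation with trend and robust, over 15 libraries and 19064 genes that reached 0.5 FPKM in 3 or more of them. Benjamini-Hochberg adjustment ran over all genes, with a threshold of 0.05. The added 0.5 understates differences of low genes. The script was tested on simulated data. Ratios of member pairs were compared with exact two-sided permutation tests (scipy 1.17.1). The members, lists and tests were chosen with earlier results of these data known. All 34 members are named; from the related lists, at most 4 genes per list that passed in dTgDox against Ct are named, by smallest p; a list of other glutamate receptor genes is not reported here. Alternatives covered pseudocount, filter, scaling, moderation, library weights, groups, a replicate block, dTg 1 and each library left out. A pair of others was chosen after seeing the data: averaging the 3 dTg libraries that share a header number, and leaving out libraries with raised olfactory bulb or striatal markers. Same-numbered libraries did not deviate together (correlations of -0.188 to 0.08), so numbers were not used as pairs. NTg was left out because its file equals that of dTg 1.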

Additional observations from a re-analysis of the deposited data

Results flagged for a closer look

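In 68 sets of 6 libraries (34 members in Ct and in dTg 2 to 7), 5 held a single library far from the others by Dixon's criterion at 95%, which chance meets in about 1 in 20 sets. Gria3 was at 77.9 FPKM in Ct 2, against 59.2 to 64.9 FPKM in the other Ct libraries. Grm4 was at 10.0 FPKM in dTg 3, against 5.54 to 6.84 in the other dTg libraries, and Cacng5 was at 12.4 FPKM in the same library, against 1.65 to 4.93. The olfactory bulb marker level of dTg 3 was 4.18, the highest in dTg, and its part in both values was not tested. Grm5 was at 27.7 FPKM in dTg 4, against 37.4 to 43.1 in the other dTg libraries, and Neto1 was at 13.1 FPKM in dTg 4, against 18.4 to 21.5.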

How the results depend on the processing

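No member called in either dTgDox comparison changed sign under an alternative of pseudocount, filter, scaling, moderation or weights, nor when 1 library was left out. Calls did change. Cnih3 against dTg was lost with no filter, median centring or no trend (limma adjusted p 0.07, 0.058 and 0.054). Neto1 against Ct was lost with no filter or no trend (0.072 and 0.054). Library weights added Gria3, Grin1, Grm2 and Shisa9 against dTg (0.025 to 0.049), and Gria3, Grm3, Grm5 and Cacng4 against Ct (0.017 to 0.048). Quantile normalization added Grin1 against dTg (0.022), and a filter of 1 FPKM in 8 libraries added Grm3 against Ct (0.046). The 3 ratio differences of each dTgDox comparison kept their sign when 1 library was left out. The sign changes below are of members that were not called, except Cnih3 with dTg 1 added. Adding dTg 1 gave 1537 genes and 4 members for dTgDox against dTg and 1504 and 5 against Ct. Log2 differences then changed sign for dTg against Ct Gria1 0.040, Grik2 0.17, Grik4 -0.061, Grin1 -0.0088, Grin2c 0.39, Grin3a -0.031, Grid1 -0.091, Grm2 -0.21, Grm3 -0.049, Grm4 0.39, Grm5 -0.59, Cacng3 -0.43, Cacng7 0.023, Cnih2 -0.31, Shisa6 0.41, Neto2 0.055; for dTgDox against dTg Grik2 -0.088, Grik5 0.13, Grin3a 0.018, Grid1 0.17, Grm7 0.10, Cnih3 0.11, Neto2 -0.027. With dTg 1 the ratio differences were 0.35 (Grin2a to Grin2b) and 0.12 (Gria1 to Gria2) for dTg against Ct, 0.20, 0.86 and 1.78 (Cacng8 to Cacng2) for dTgDox against dTg, and 0.55, 0.98 and 1.17 for dTgDox against Ct, none with an adjusted p under 0.054 (exact permutation).

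Same-numbered libraries share only a number: 1 of 15 libraries was closest to one of its own number. The replicate block gave 1562 genes and 10 members for dTgDox against dTg and 2394 genes against Ct. Signs changed under the block for dTg against Ct Grik2 0.0010, Grik4 -0.045, Grin2d 0.0019, Grm2 -0.0037, Grm5 -0.046, Cacng3 -0.012; for dTgDox against dTg Grin2d -0.0096, Grin3a 0.024, Grid1 0.045, Grm7 0.0024; for dTgDox against Ct Grin2d -0.0077, Grin3a 0.029. Differences near 0 also changed sign with upper quartile scaling (for dTg against Ct Gria3 0.0001, Grik2 0.013, Grik5 0.0032, Grin2b 0.0058; for dTgDox against Ct Grin3a 0.0061), library weights (for dTg against Ct Gria3 0.0061, Grin2b 0.0062; for dTgDox against dTg Grin3a 0.0049; for dTgDox against Ct Grin3a 0.013), quantile normalization (for dTg against Ct Grin2b 0.0023) and median centring (for dTgDox against Ct Grin3a 0.0042). For dTg against Ct, 1 gene was called with a pseudocount of 0.1, 2 with the 3 dTg libraries of one header number averaged and 13 in the 7 libraries with low regional markers, where dTgDox against Ct gave 1507 genes and 8 members.

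With 1 library left out, 0 to 1 genes were called for dTg against Ct, 2077 to 3715 for dTgDox against dTg and 2229 to 3872 for dTgDox against Ct, the lowest counts of the 2 dTgDox comparisons being those without dTgDox 1; without dTgDox 3 they were 2155 and 2273. Members called were 0, 9 to 19 and 12 to 18. The ratio differences were, in the order of those comparisons, -0.071 to 0.020, 0.53 to 0.63 and 0.50 to 0.60 for Grin2a to Grin2b; -0.11 to 0.017, 0.97 to 1.07 and 0.91 to 1.04 for Gria1 to Gria2; and -0.21 to -0.035, 1.1995 to 1.40 and 1.09 to 1.27 for Cacng8 to Cacng2. Differences whose sign changed ranged for dTg against Ct Gria2 -0.085 to 0.043, Gria3 -0.10 to 0.062, Grik2 -0.065 to 0.068, Grik4 -0.073 to 0.11, Grik5 -0.057 to 0.023, Grin2a -0.10 to 0.042, Grin2b -0.11 to 0.056, Grin2c -0.12 to 0.0081, Grin2d -0.11 to 0.019, Grin3a -0.011 to 0.089, Grm2 -0.095 to 0.13, Grm5 -0.035 to 0.11, Grm8 -0.23 to 0.025, Cacng3 -0.016 to 0.15, Cacng8 -0.069 to 0.0029, Shisa6 -0.15 to 0.068; for dTgDox against dTg Grin2b -0.034 to 0.17, Grin2c -0.15 to 0.058, Grin3a -0.14 to 0.065, Grid1 -0.064 to 0.054, Cacng5 -0.41 to 0.11; for dTgDox against Ct Grin2b -0.041 to 0.16, Grin2c -0.20 to 0.0075, Grin2d -0.029 to 0.10, Grin3a -0.11 to 0.090, Neto2 -0.079 to 0.091. Depth is known only in relative terms, so counting error was not separated from other spread, and 3 dTgDox libraries limit every comparison that uses them.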
